A study of Mus musculus with 60 samples.

Results

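H3K27me3, the histone mark left by the Polycomb complex, was mapped in mouse dorsal root ganglia after 4 kinds of surgery, and the regions that carried a peak of it after every one of them are described here. They were chosen by merging the 4 deposited H3K27me3 peak lists wherever peaks overlapped by at least 1 bp and keeping the merged regions that held a peak from each list. Of 321332 merged regions, 12265 (3.82%) met this rule, 25176 had peaks from 3 lists, 57753 from 2 lists and 226138 (70.4%) from 1 list. The 12265 regions are called shared regions below. Ganglia from lumbar levels L4 to L6 of C57BL/6 mice aged 6 to 8 weeks were taken 24 hours after sham surgery on the sciatic nerve (Sham), sciatic nerve axotomy (SNA), laminectomy (Lam) or axotomy of the spinal dorsal columns (DCA). The labels name no genetic change in any group. Each H3K27me3 list came from 2 ChIP samples of 10 pooled mice and their inputs, and ATAC lists, which mark accessible DNA, came from 3 samples of 1 mouse each. Lists for the histone acetylation marks H3K9ac and H3K27ac, found at active promoters and enhancers, were made like those for H3K27me3. Every list pools the replicates of its surgery, so no value has a replicate error, no difference was tested, and the intervals given are 95% Wilson intervals that cover counting error only.

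H3K27me3 is placed on nucleosomes by Polycomb repressive complex 2, whose catalytic subunit is Ezh2 or Ezh1, and it marks genes that a cell type holds silent. In mammals the complex is known for broad domains over CpG-rich promoters of developmental regulators, among them the Hox clusters, whose genes set position along the body axis. Acetylation and trimethylation cannot sit on the same lysine 27, and H3K27ac is the mark of active elements at that residue. A dorsal root ganglion holds sensory neurons, satellite glia, Schwann cells, fibroblasts, vessel cells and macrophages, so a region with both a repressive and an active mark in such tissue may differ between cells, and the lists cannot separate this from both marks in the same cell.

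Promoters are printed here to show the kind of DNA that lies in these regions. Each is the 300 bases from 250 before to 50 after a gene start in the RefSeq table of GRCm38.p6, the assembly that mm10 names, written 5′ to 3′ on the gene's strand with each CpG in capitals. The first 4 lie wholly inside shared regions and were taken from the named genes by the strength of the weakest list. They belong to Mecom (chr3:30509710-30510009, minus strand), a zinc finger transcription factor of blood stem cells, Hpse2 (chr19:43388306-43388605, minus strand), a heparanase relative, Nkx2-3 (chr19:43612075-43612374, plus strand), a homeobox factor of spleen and gut, and Hoxa10 (chr6:52240805-52241104, minus strand), from its upstream start.
Mecom: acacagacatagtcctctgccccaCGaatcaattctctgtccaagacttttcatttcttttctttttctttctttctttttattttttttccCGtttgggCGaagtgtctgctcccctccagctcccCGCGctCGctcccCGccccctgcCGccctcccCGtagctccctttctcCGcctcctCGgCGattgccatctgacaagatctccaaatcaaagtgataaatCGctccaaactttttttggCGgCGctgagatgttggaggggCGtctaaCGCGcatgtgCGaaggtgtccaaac
Hpse2: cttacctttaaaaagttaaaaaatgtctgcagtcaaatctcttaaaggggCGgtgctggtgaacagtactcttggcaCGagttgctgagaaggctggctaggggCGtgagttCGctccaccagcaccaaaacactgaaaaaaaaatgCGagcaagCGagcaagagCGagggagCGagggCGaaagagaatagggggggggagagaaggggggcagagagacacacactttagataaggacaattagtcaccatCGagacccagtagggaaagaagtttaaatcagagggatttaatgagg
Nkx2-3: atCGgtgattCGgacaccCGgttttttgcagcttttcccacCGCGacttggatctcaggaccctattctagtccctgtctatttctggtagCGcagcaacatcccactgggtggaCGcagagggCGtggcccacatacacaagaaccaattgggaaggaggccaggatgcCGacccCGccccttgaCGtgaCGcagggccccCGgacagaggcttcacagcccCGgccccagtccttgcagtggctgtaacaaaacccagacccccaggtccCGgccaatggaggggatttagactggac
Hoxa10: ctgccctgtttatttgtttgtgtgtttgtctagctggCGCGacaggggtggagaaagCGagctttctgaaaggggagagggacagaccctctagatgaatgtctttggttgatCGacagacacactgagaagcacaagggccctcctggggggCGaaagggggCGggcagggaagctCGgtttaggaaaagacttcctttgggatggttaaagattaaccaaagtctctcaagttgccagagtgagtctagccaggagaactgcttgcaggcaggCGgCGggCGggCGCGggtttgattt
Mecom held 19 CpG, Hpse2 10, Nkx2-3 15 and Hoxa10 12. None of the 4 overlapped an H3K9ac or H3K27ac peak of any surgery, and Nkx2-3 alone among them overlapped an ATAC peak. For comparison, the promoters with the strongest peaks among regions of 1 list are those of Osbp2 (chr11:3722178-3722477, minus strand), an oxysterol-binding protein with a peak in Lam, and Cabp7 (chr11:4747130-4747429, minus strand), a calcium-binding protein with a peak in SNA.
Osbp2: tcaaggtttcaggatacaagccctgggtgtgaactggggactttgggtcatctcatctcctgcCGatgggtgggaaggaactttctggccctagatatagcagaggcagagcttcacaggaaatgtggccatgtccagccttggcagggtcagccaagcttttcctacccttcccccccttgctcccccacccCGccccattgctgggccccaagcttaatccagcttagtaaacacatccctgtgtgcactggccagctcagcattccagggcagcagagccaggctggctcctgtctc
Cabp7: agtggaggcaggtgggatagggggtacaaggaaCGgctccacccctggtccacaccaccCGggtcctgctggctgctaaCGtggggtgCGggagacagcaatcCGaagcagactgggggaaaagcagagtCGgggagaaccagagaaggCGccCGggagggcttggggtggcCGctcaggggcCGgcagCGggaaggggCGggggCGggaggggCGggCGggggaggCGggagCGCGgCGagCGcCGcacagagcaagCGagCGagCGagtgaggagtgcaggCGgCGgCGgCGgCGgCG
Osbp2 held 2 CpG and Cabp7 30, more than any of the 4 above, so single promoters do not separate the classes. Over all promoters of each class the median was 11 CpG in shared regions, 6 in regions of 1 list and 15 in no region, beside 13 over all promoters.

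The shared regions were wide, which follows in part from the rule, since a region joins at least 4 peaks. Their median merged width was 5010 bp (quartiles 3363 and 7720 bp, range 578 to 133212 bp), against 2740 bp with 3 lists, 1555 bp with 2 and 645 bp with 1. A width of at least 10 kb was reached by 1911 shared regions, by 389 regions of 3 lists and by 1 region of 1 list. At least 20 kb was reached by 485 shared regions, which held 19.2% of the shared bases, and by 25 regions of 3 lists, and 56 shared regions reached 50 kb. The median shared region joined 5 peaks and the largest number was 66, while 4160 had exactly 1 peak per list. A peak in each list did not mean a common base. At least 1 base lay in a peak of all 4 lists in 6965 shared regions (56.8%), and 5300 had none. Where such a core was present its median was 636 bp, and all cores together made 11.4 Mb of the 84.7 Mb of shared regions (13.5%).

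**Figure D1:**
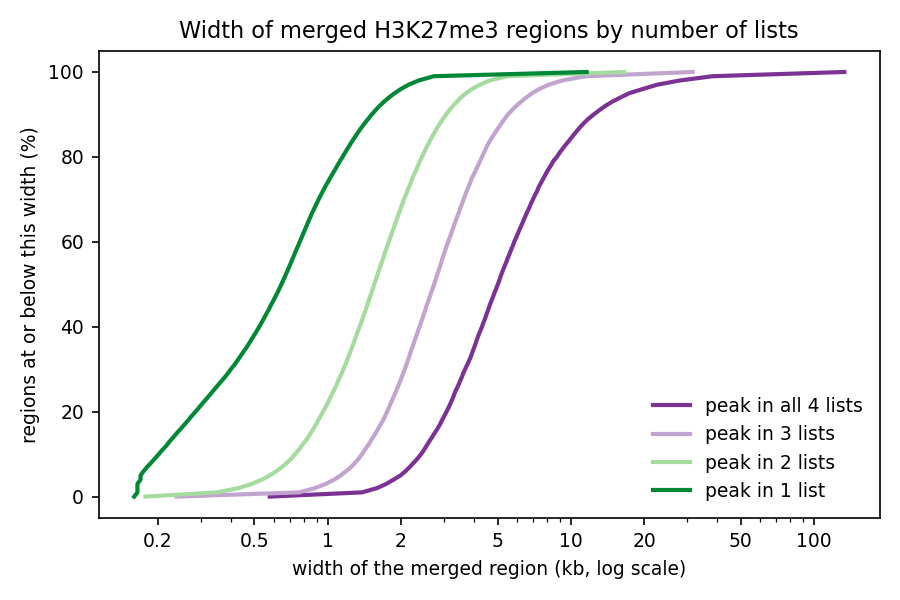
Cumulative share of merged H3K27me3 regions (vertical axis, %) at or below a given merged width (horizontal axis, kb, log scale), 1 line per number of lists with a peak, drawn at whole percentiles. The lines move right with each further list, with medians of 645, 1555, 2740 and 5010 bp.

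Each list contributed a similar part to the shared regions, apart from DCA. Shared regions took 16873 Sham peaks (13.7% of that list), 20174 SNA peaks (14.2%), 20625 Lam peaks (13.4%) and 20162 DCA peaks (22.4%). By bases, peaks covered 64.3% of the shared regions after Sham, 59.3% after SNA, 61.5% after Lam and 38.1% after DCA, so DCA was the lowest. The median width of a peak inside them was 2085 bp after Sham, 1722 bp after SNA, 1636 bp after Lam and 1174 bp after DCA, against 702, 644, 643 and 563 bp for peaks in regions of 1 list. Just outside the rule, among the 25176 regions of 3 lists, 10524 (41.8%) lacked only the DCA peak, 7103 lacked Sham, 3948 lacked SNA and 3601 lacked Lam.

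The strength of shared regions depended on how it was counted. The authors' fold enrichment over background had a median of 1.08 after Sham, 1.13 after SNA, 1.17 after Lam and 1.17 after DCA for peaks in shared regions, against 1.13, 1.16, 1.20 and 1.19 in regions of 1 list. Most H3K27me3 peaks were weak in every class, with a median −log10 p in shared regions of 0.859, 0.756, 0.758 and 0.742 in the same order. Peaks with a q-value of at most 0.05 numbered 139, 25, 95 and 7 in shared regions, out of 1613, 218, 916 and 43 in the whole lists, while 818, 111, 467 and 21 of them lay in regions of 1 list. Counted per region, which favours regions with more peaks, the highest −log10 p over all lists had a median of 1.06 in shared regions and 0.807 in regions of 1 list, and the highest fold 1.34 and 1.17. No region had a peak with a −log10 p of at least 2 in all 4 lists.

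The region whose weakest list was strongest covered Mecom (chr3:30480262-30529214, 49.0 kb wide). Its peaks covered 40.8 kb after Sham, 40.5 kb after SNA, 36.6 kb after Lam and 29.3 kb after DCA, with a highest −log10 p of 2.71, 2.09, 3.61 and 1.77. Peaks covered most of its length in each list, and 18.5 kb of it lay in peaks of all 4. The second was 3.36 kb wide, 4.40 kb from Mtfp1, a gene for a mitochondrial fission protein (chr11:4083722-4087080), with a highest −log10 p of 13.6 after Sham, 7.89 after SNA, 4.64 after Lam and 1.63 after DCA. Its highest fold was 1.35, 1.31, 1.19 and 1.02 in the same order, against 1.81, 1.75, 2.16 and 1.93 in the Mecom region. Near Mtfp1 the DCA peaks covered 0.160 kb and no base was common to all lists, which shows how far strength and extent can part. The remaining 8 of the 10 strongest lay at Samd9l (an antiviral factor gene), Hpse2 and Nkx2-3, or between genes nearest to Tcf4 (2 neighbouring regions, 182.2 and 203.2 kb away), Nebl (73.3 kb), Tmem200c (24.1 kb) and Olfr161 (307.5 kb).

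Ranked by the core covered in all 4 lists, the widest regions lay at developmental regulators. The first was at Nkx2-3 (chr19:43531207-43629431, 98.2 kb), where peaks covered 91.4 kb after Sham, 89.1 kb after SNA, 87.7 kb after Lam and 72.3 kb after DCA, with a core of 57.7 kb. The second held Hoxa10, Hoxa11, Hoxa13 and Evx1 (chr6:52239145-52333604, 94.5 kb), covered over 88.0, 88.3, 89.0 and 62.4 kb in the same order, with a core of 57.3 kb. The third held En2, a homeobox gene of the midbrain and hindbrain, and its neighbour Cnpy1 (chr5:28116240-28222052, 105.8 kb), with 103.5 kb after Sham, 86.1 kb after SNA, 99.4 kb after Lam and 67.0 kb after DCA. DCA covered the least in each of the 3. Next came Zic1 and Zic4, zinc finger genes of the cerebellum (core 54.1 kb), Hoxc10 to Hoxc13 (49.4 kb), Hoxb13 with Ttll6 (49.2 kb), the heart factor genes Gata4 (46.2 kb) and Hand2 (45.1 kb), a region 77.3 kb from Cyp26b1, the gene of a retinoic acid-degrading enzyme (39.2 kb), and Barhl2, a homeobox gene of neural subtypes (38.4 kb). H3K27ac peaks of any surgery lay in 5 of these 10 regions, over at most 3.36% of the bases. H3K9ac peaks were absent from 7 and covered 0.797% of the bases of the Hoxa region, 1.45% at Zic1 and 4.93% at Hoxc.

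Developmental transcription factors had the highest share of promoters in shared regions among the 11 gene lists. Over all protein-coding genes with a printed start in the promoter table, 967 of 17492 (5.53%) had a promoter overlapping a shared region. Of the 132 listed developmental transcription factors, 88 had a promoter in the table and 78 of those (88.6%) lay in a shared region. H3K9ac peaks of any surgery met 6 of the 88 promoters, H3K27ac peaks 1 and ATAC peaks 75. H3K27me3 peaks met 80 of the 88 after Sham, 63 after SNA, 82 after Lam and 16 after DCA. Over all 17492 genes the numbers were 2401, 1361, 2503 and 505, so SNA and DCA were lower there too. A shared region lay within 10 kb of 121 of the 132 genes, against 4293 of 21887 genes overall (19.6%). The median listed gene had 93.6% of itself and its 10 kb flanks covered. Pax5, Pax3, Prox1 and Wt1 had the most regions, with Pax7 and Tbx20 tied with Wt1 in number and behind it in length covered. Pax5, a B cell factor, had 6 regions over 109.4 kb, and Pax3, a factor of neural crest and muscle, had 6 over 84.4 kb. Prox1, a lymphatic and neural factor, had 5 over 17.8 kb but its promoter was outside them, and Wt1, a kidney and gonad factor, had 4 over 60.8 kb. The 10 promoters outside were those of Sox2, Foxd3, Pax8, Gata2, Gata5, Foxf2, Phox2a, Pitx3, Tbx1 and Prox1. They are named because they were few and after their values were seen.

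Genes of developmental signals were split. Of 28 promoters 13 (46.4%) lay in shared regions. Aldh1a2, which makes retinoic acid, had 6 regions over 68.1 kb, and Wnt9b, a Wnt ligand, had 3 over 58.7 kb. Cyp26b1 had 2 regions over 39.7 kb, which was 93.4% of the gene and its flanks. Bmp6, a BMP ligand, had 4 over 17.5 kb, with its promoter outside. Among the 28 promoters 10 overlapped an H3K9ac peak and 4 an H3K27ac peak.

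Wide shared regions ended within each of the Hox clusters. The table has a promoter for 22 Hox genes, of which 10 (45.5%) lay in a shared region, and 10 overlapped an H3K9ac peak. Shared regions covered 23.5% of the Hoxa cluster, 33.0% of Hoxb, 46.5% of Hoxc and 49.3% of Hoxd. In Hoxa the 94.5 kb region began at Hoxa10 and ran past Hoxa11 and Hoxa13 to Evx1. In Hoxc an 88.1 kb region (chr15:102886834-102974980) held Hoxc13, Hoxc12, Hoxc11 and Hoxc10. In Hoxd a 60.4 kb region (chr2:74641820-74702195) held Evx2 and Hoxd13 to Hoxd9, and in Hoxb a 65.5 kb region (chr11:96156465-96221980) held Hoxb13. Paralogues of groups 10 to 13, active in the most posterior segments, thus lay at least in part in shared regions in each cluster. Hoxb1 and Hoxd1, at the other end of their clusters, were also in shared regions, of 15.8 kb and 7.67 kb. The promoters of Hoxa3, Hoxa6, Hoxb4 and Hoxc4 overlapped H3K9ac peaks in all 4 surgeries and no shared region. Hoxa10 carried the boundary, since its upstream promoter lay in the region with no acetylation peak, and its downstream promoter outside it overlapped an H3K9ac peak in DCA and H3K27ac peaks in SNA and Lam. Other promoters outside shared regions were mixed. Those of Hoxa7, Hoxa9 and Hoxd3 overlapped H3K9ac peaks in 2, 3 and 2 surgeries and H3K27ac peaks in 3, 2 and 3. The rest had little or no acetylation. Those of Hoxa5, Hoxb8 and Hoxd4 overlapped no acetylation peak, that of Hoxa2 only H3K9ac in SNA, and that of Hoxd8 only H3K27ac in SNA. Hoxd4 had H3K27me3 peaks of SNA, Lam and DCA over its promoter but none of Sham.

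**Figure D2:**
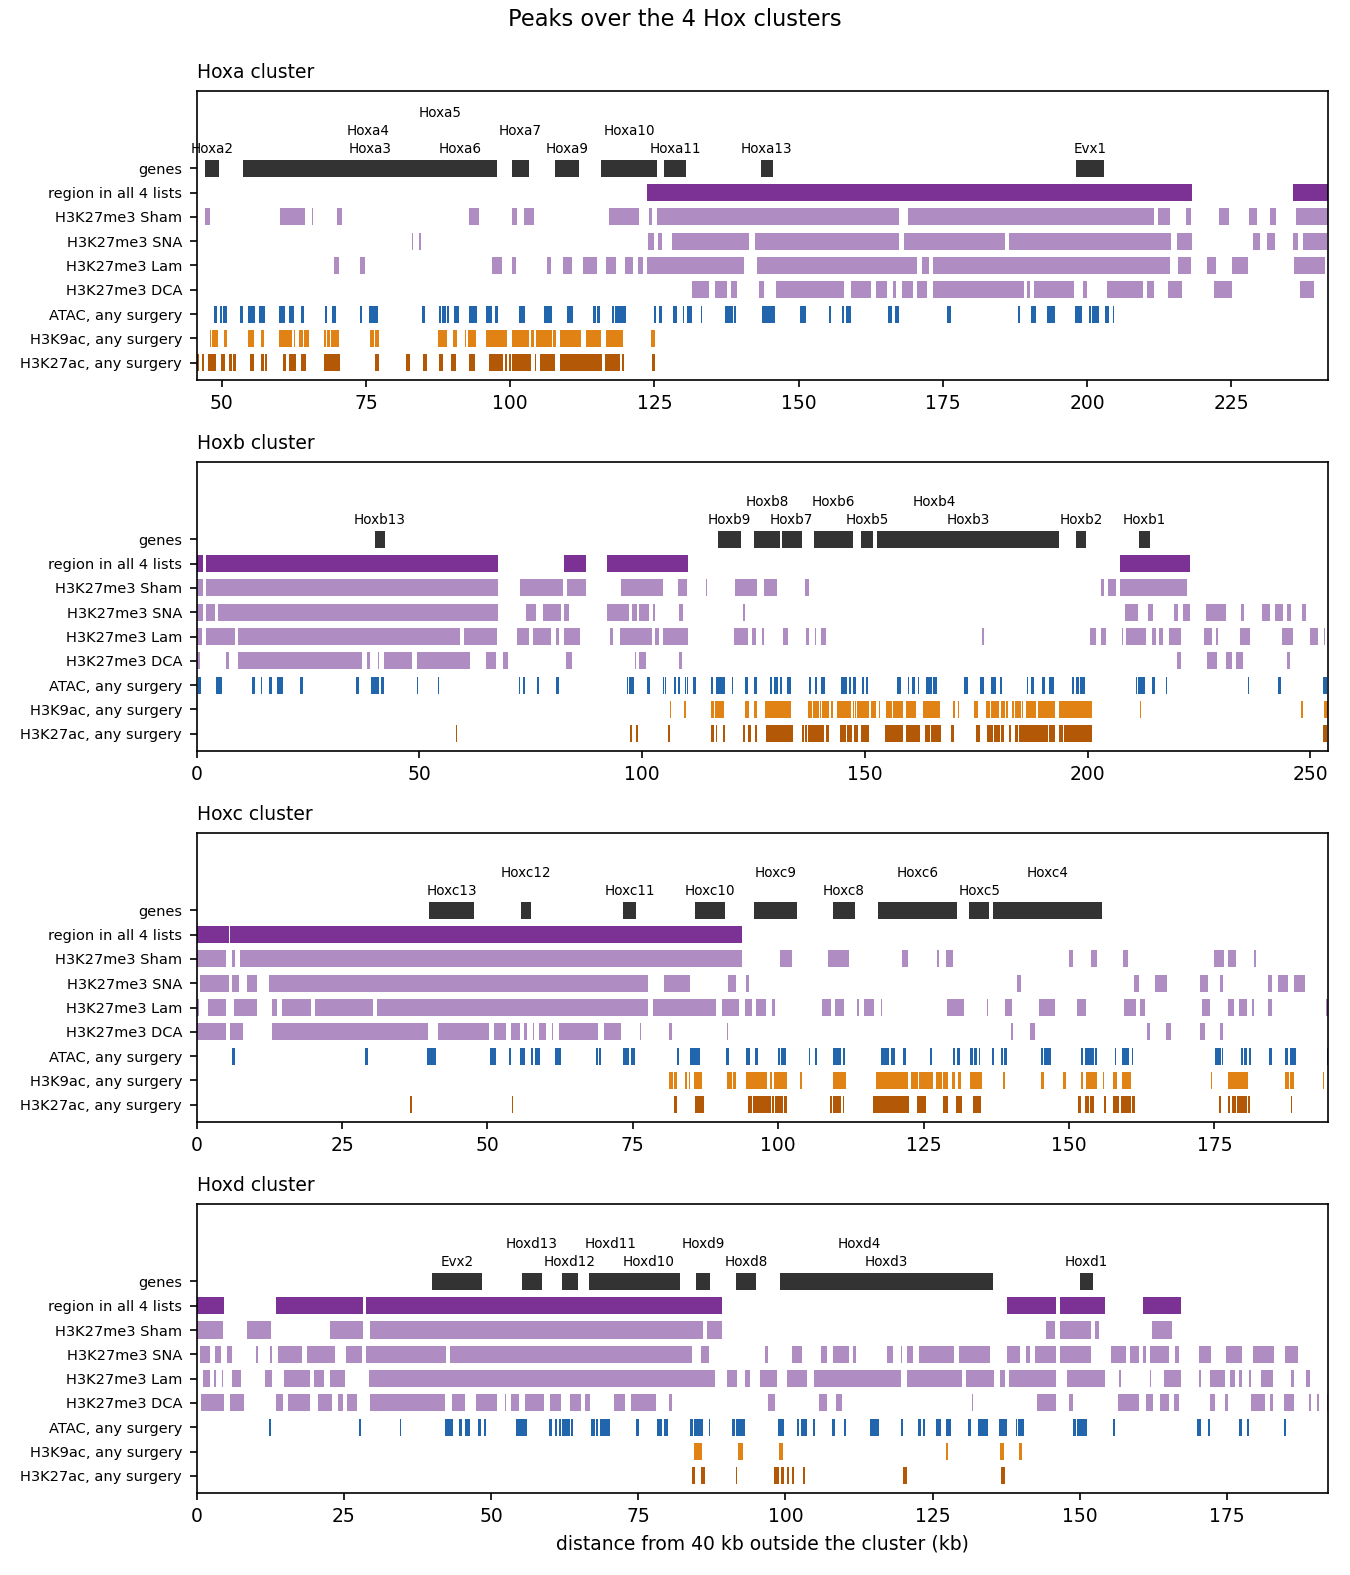
The 4 Hox clusters with 40 kb on either side (horizontal axis, kb), except that the Hoxa panel starts inside its cluster. Rows show genes, shared regions, the H3K27me3 peaks of each surgery, and the merged ATAC, H3K9ac and H3K27ac peaks of any surgery. Acetylation peaks fill the middle of Hoxa, Hoxb and Hoxc, while Hoxd has few acetylation peaks. In Hoxa and Hoxc they thin out where the wide shared regions over groups 10 to 13 begin. In Hoxb they thin out near Hoxb9, at a distance from the wide shared region that holds Hoxb13.

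Sensory neuron genes were in shared regions more often than genes at large, and glial genes were not. Of 22 sensory neuron promoters 12 (54.5%) lay in shared regions, namely those of Pou4f1, Pou4f2, Isl1, Runx3, Prrxl1, Trpm8, Calca, Tac1, Sst, Nppb, Pvalb and Prph. The first 5 are transcription factors of sensory neurons, Trpm8 is the cold channel, and Calca, Tac1, Sst and Nppb encode neuropeptides. Isl1 had 98.6% of itself and its 10 kb flanks in shared regions and Pou4f1 98.8%. Outside, Runx1, a factor of nociceptors, had 6 regions nearby, the sodium channel gene Scn10a 5, and the neurotrophin receptor gene Ntrk2 4. Of the 12 promoters in shared regions 11 overlapped an ATAC peak, 3 an H3K9ac peak (Calca, Pvalb and Prph) and 2 an H3K27ac peak (Calca and Prph). H3K27me3 peaks met 11 of all 22 promoters after Sham, 7 after SNA, 12 after Lam and 2 after DCA, beside 2401, 1361, 2503 and 505 over all 17492 genes. The promoters of Runx3 and Trpm8 lay in peaks of all 4 lists, and those of Pou4f1, Prph and Nppb in peaks of 1. None of 13 glial promoters lay in a shared region, and all 13 overlapped an H3K9ac peak.

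The same lists served to check the tissue. H3K9ac peaks reached to 1 kb or less from an end of 3 of 31 sensory neuron genes after Sham, 4 after SNA, 3 after Lam and 8 after DCA. For the 20 genes of satellite glia and Schwann cells the numbers were 13, 18, 16 and 18, and for 20 macrophage genes 1, 1, 1 and 4. ATAC peaks lay at 25, 25, 27 and 24 of the sensory neuron genes. For the 20 glial genes the ATAC numbers were 15, 17, 16 and 16, and for the 20 macrophage genes 7, 9, 9 and 11. Keratin genes, markers of skin, had H3K9ac peaks at 6, 3, 2 and 5 of 37 and ATAC peaks at 20, 24, 20 and 24. Over all genes H3K9ac peaks reached 49.1% in Sham and 59.3% in DCA, with SNA and Lam between. By H3K9ac the sensory neuron list thus lay below and the glial list above all genes in each surgery. ATAC peaks reached 69.4 to 71.2% of all genes. By ATAC both the sensory neuron list (77.4 to 87.1%) and the glial list (75 to 85%) lay above all genes in each surgery. The macrophage (35 to 55%) and keratin (54.1 to 64.9%) lists lay below. How the cell types share out these regions was not tested.

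Other gene groups filled in the range. Keratins, structural proteins of skin, had 7 of 25 promoters in shared regions (28.0%), with Krt2 under 3 regions and Krt77, Krt76 and Krt18 under 2 each. Injury and regeneration genes had 3 of 30 (10.0%), namely Sox11, a transcription factor of neuronal growth, Npy, a neuropeptide, and Ankrd1, a muscle stress protein. Sox11 lay 89.6% in shared regions with its flanks, and it had an ATAC peak at its promoter in all 4 surgeries and an acetylation peak in none. That promoter itself lay in an H3K27me3 peak of 1 list. Atf3, a stress transcription factor of injured neurons, had a region of 3.77 kb nearby, with its promoter outside it and H3K9ac there in 3 surgeries. Macrophage genes had 1 of 15 (C1qb), ribosomal proteins 0 of 55, and subunits of the Polycomb complexes themselves 0 of 25, although Pcgf5 and Bmi1 each had 2 shared regions nearby. Olfactory and vomeronasal receptors, silent in this tissue, had 43 of 1265 (3.40%), below the share over all genes, and ATAC peaks at 46 promoters.

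**Figure D3:**
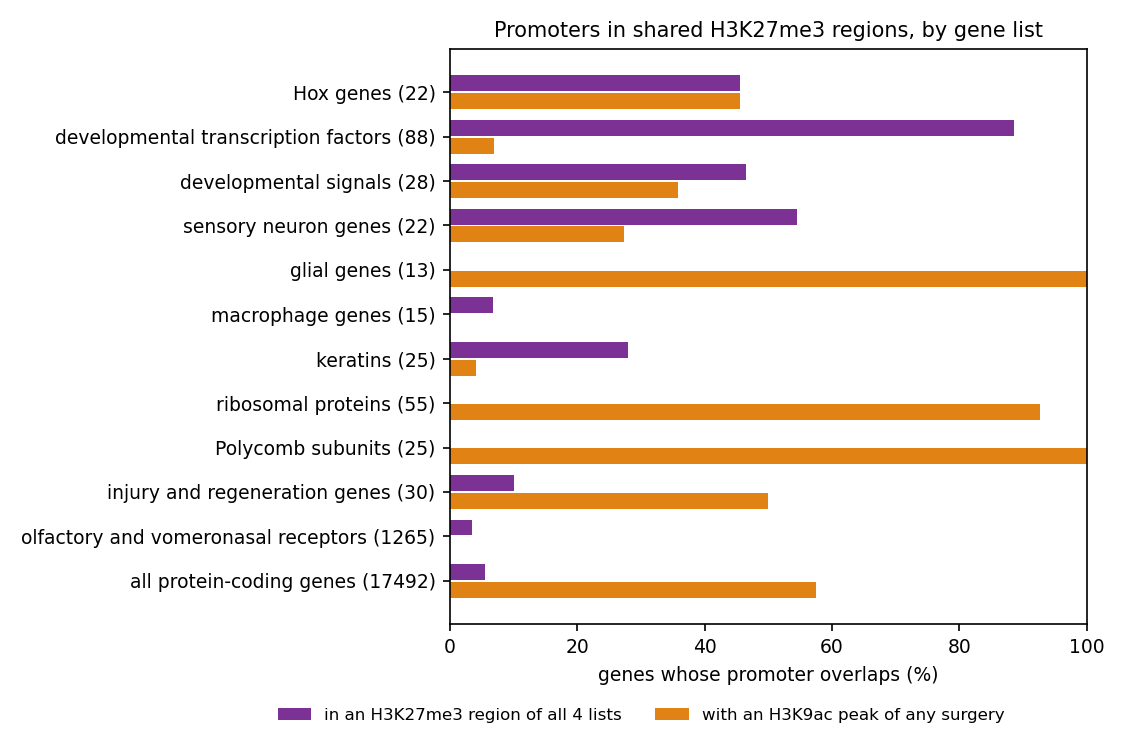
Share of genes (horizontal axis, %) whose promoter overlapped a shared H3K27me3 region (purple) or an H3K9ac peak of any surgery (orange), by gene list, with the number of genes that have a promoter in the table in parentheses. Developmental transcription factors stand at 88.6% and 6.82%, ribosomal proteins at 0 and 92.7%, and all genes at 5.53% and 57.5%.

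The number of shared regions in and around a gene grows with its length, and the genes with the most were long. Asic2, the gene of an acid-sensing ion channel (chr11:80880163-81968396), had 54 within 10 kb, over 326.1 kb. Tenm4, a teneurin, had 25, Cdh13, a cadherin, 21, Kirrel3, an adhesion protein, 20, and Ephb1, an ephrin receptor, 19. Skap1, a T cell adaptor, had 22 in a gene of 295.1 kb, and the transcription factor gene Sox5 had 19. The protocadherin gamma locus on chromosome 18 accounted for the other 3 of the first 10, as 3 overlapping gene models (Gm37013, Gm38666 and Gm38667) with the same 26 regions. These genes also had regions of 1 list, 108 at Asic2, 171 at Cdh13 and 23 at Skap1. Over the whole set there were 226138 regions of 1 list beside 12265 shared regions.

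Shared regions lay close to one another and to other H3K27me3 regions. Of the bases within 50 kb of a shared region a median of 44.4% lay in other merged regions of any class, against 35.6% for 3 lists, 26.3% for 2 and 17.1% for 1. The order held at like width, with 37.4% against 24.1% among regions of 2 to 4 kb, and on 20 of 20 chromosomes with values for both classes. The flanking cover was counted from the same 4 lists that chose the regions, so it is a description and not independent of the rule. Joined over gaps of up to 50 kb, the shared regions formed 4854 domains, of which 2686 were single regions. The 618 domains of 5 or more held 45.1% of the shared regions and 53.5% of their bases. The largest spanned 1418 kb around the Irx homeobox genes Irx3, Irx5 and Irx6 (chr8:91674347-93092028), with 58 shared regions over 66.1% of its length, and H3K27me3 peaks covered 53.3% of it after Sham, 56.7% after SNA, 59.7% after Lam and 39.1% after DCA. The densest of the 10 largest lay at Fgfr2, a fibroblast growth factor receptor gene (chr7:129652456-130293711), where 30 shared regions covered 83.8%, and others lay at Asic2, Wscd1, Msx2, Sox1, and Mgmt with Ebf3. No base of the Msx2 domain lay in an acetylation peak. Regions of other classes were not joined into domains, so the domain counts have no comparison.

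Position relative to genes depended on width. Of the shared regions 14.6% (14.0 to 15.2) came within 1 kb of a gene end, as did 8.40% with 3 lists and 3.56% with 1 list, against 4.68% of all merged regions. Among regions of 2 to 4 kb the order turned, with 5.71% (5.01 to 6.51) of shared regions and 7.22% (6.70 to 7.78) of those with 1 list. At 4 to 8 kb the shares were 12.6% and 17.8%, and at 16 kb or more they were 52.3% for shared regions and 55.6% with 3 lists, so shared regions showed no excess at like width. Counted per length, shared regions held 12.9 gene starts per Mb, regions of 3 lists 11.5, regions of 1 list 7.002 and the whole span 8.00. This measure also rose with width, from 12.1 in shared regions under 20 kb to 16.2 in those of at least 20 kb. The classes were not matched for width here. For gene starts in CpG-rich promoters the densities were 5.05, 3.64, 1.68 and 3.81 per Mb. Shared regions of at least 20 kb reached 10.3, and those under 20 kb had 3.82, near the value of the whole span. A protein-coding gene was overlapped by 36.0% of shared regions and by 38.4% of those with 1 list.

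The CpG content of promoters differed between the classes and with region width. A promoter was called CpG-rich when its observed number of CpG was at least 0.6 of that expected from its C and G content, which held for 47.7% of all 21263 promoters. It held for 39.0% (36.2 to 41.9) of the 1113 promoters in shared regions. The share was 63.3% (57.3 to 68.8) of the 264 in shared regions of at least 20 kb and 31.4% (28.4 to 34.6) of the 849 in those under 20 kb. It was 31.2% with 3 lists, 23.7% (21.7 to 25.8) of the 1591 in regions of 1 list and 53.0% of those in no region. As with gene ends, the difference between shared regions and those of 1 list reversed at a width of 2 to 4 kb, to −16.6 percentage points. Of the listed genes with a promoter in the table, 80.7% of the developmental transcription factors had a CpG-rich one, beside 92% of the Polycomb subunits, 87.3% of the ribosomal proteins, 0.474% of the olfactory and vomeronasal receptors and none of the macrophage genes.

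Acetylation at CpG-rich promoters fell with the number of lists. H3K9ac peaks of any surgery met 57.2% of all promoters and 15.8% (13.8 to 18.1) of those in shared regions. Among CpG-rich promoters alone they met 22.4% (18.7 to 26.5) in shared regions, 7.19% (4.16 to 12.1) in those of at least 20 kb, 43.0% (37.6 to 48.6) with 3 lists, 79.3% (74.9 to 83.1) with 1 list and 92.4% in no region. H3K27ac peaks met 47.6% of all promoters, and among CpG-rich ones 6.91% (4.88 to 9.70) in shared regions, 52.5% with 1 list and 79.7% in no region. For ATAC the difference was smaller. Peaks of any surgery met 70.3% of all promoters and 71.2% of those in shared regions, and at CpG-rich promoters 92.9% (90.04 to 94.9) in shared regions, 95.5% (92.9 to 97.2) with 1 list and 96.8% in no region. Within a surgery the order was that of acetylation. For CpG-rich promoters in shared regions the ATAC shares were 77.0% for Sham, 83.6% for SNA, 78.6% for Lam and 81.1% for DCA, against 85.7, 88.1, 88.1 and 89.4% with 1 list and 94.5, 95.8, 94.8 and 95.2% in no region. In shared regions of at least 20 kb they were 61.7, 74.9, 69.5 and 69.5%.

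Over whole regions the same contrast held. H3K9ac peaks of any surgery covered 0.525% of the bases of shared regions, 2.66% in regions of 1 list and 3.42% outside H3K27me3 regions. In shared regions the cover was 0.131% after Sham, 0.164% after SNA, 0.0822% after Lam and 0.389% after DCA, against 0.848, 1.32, 0.609 and 1.92% in regions of 1 list, so it was lower after each surgery, and on 20 of 20 chromosomes. H3K27ac peaks covered 0.370% against 2.12%, and 3.29% outside. By surgery the values were 0.165, 0.106, 0.177 and 0.103% against 0.660, 1.13, 1.24 and 0.598%, lower after each surgery and on 19 of 20 chromosomes. Counted as regions the direction turns, because a wide region meets more peaks. An H3K9ac peak met 5.94% of shared regions and 5.01% of those with 1 list (4.91% of all merged regions), and an H3K27ac peak 4.74% and 4.03% (3.92% of all). At a width of 2 to 4 kb an H3K9ac peak met 2.28% (1.85 to 2.82) of shared regions and 8.83% (8.25 to 9.44) of those with 1 list. At 4 to 8 kb the shares were 4.91% and 23.3%, so at like width the lower acetylation of shared regions was seen by either measure.

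ATAC peaks covered 13.2% of shared and 13.4% of 1-list bases, and 6.24% of bases outside H3K27me3 regions. By surgery the cover was 4.94% after Sham, 6.18% after SNA, 5.08% after Lam and 5.79% after DCA for shared regions, and 5.09, 5.94, 4.95 and 5.70% for regions of 1 list, a difference that changed direction between surgeries. A peak met 66.9% of shared regions and 26.7% of those with 1 list (33% of all merged regions), but 49.1% and 51.2% at 2 to 4 kb. An ATAC peak was present after all 4 surgeries in 2434 shared regions (19.8%) and after none in 4064 (33.1%). For H3K9ac those numbers were 62 and 11537. Such counts were not made for the other classes, whose regions are narrower, so they have no comparison.

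**Figure D4:**
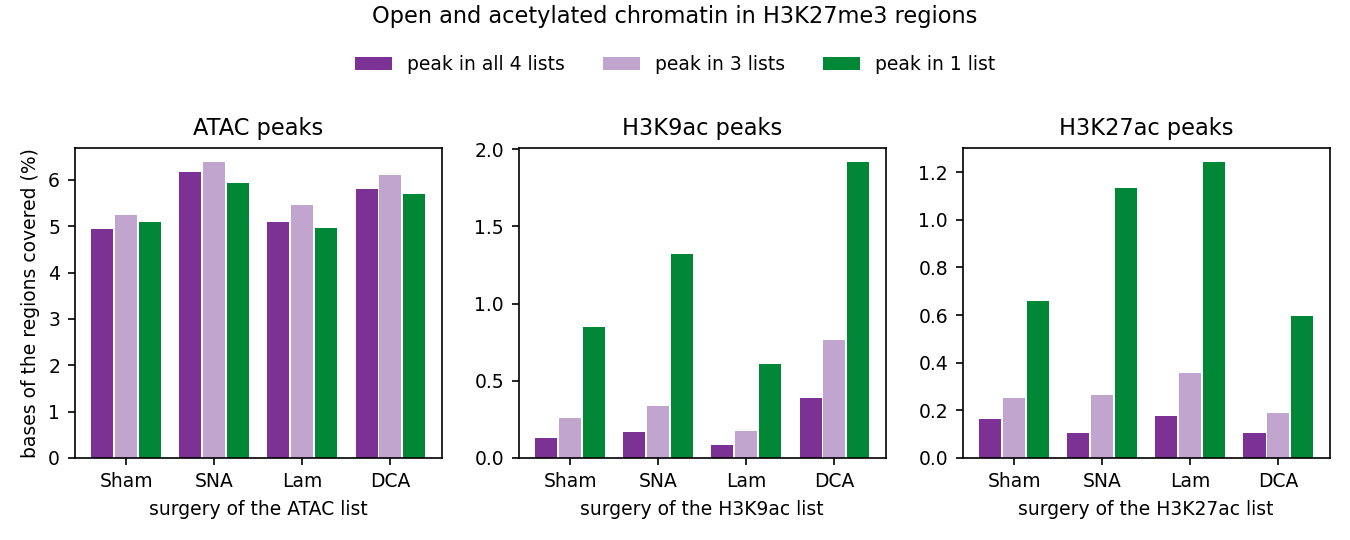
Share of the bases (vertical axes, %, each with its own scale) of H3K27me3 regions with peaks in all 4 lists, in 3 lists and in 1 list that lay in ATAC, H3K9ac or H3K27ac peaks of each surgery. The classes lie close together for ATAC, between 4.94% and 6.38%, and for both acetylation marks shared regions are the lowest after each surgery.

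Promoters inside shared regions were unequally covered by the 4 H3K27me3 lists, which is a description, since these lists chose the regions. Of the 434 CpG-rich promoters there, 397 (91.5%) overlapped an H3K27me3 peak of Sham, 208 (47.9%) of SNA, 370 (85.3%) of Lam and 30 (6.91%) of DCA. For the 679 other promoters the shares were 78.4, 64.7, 79.7 and 33.0%. With whole lists, CpG-rich promoters were thus covered less often than other promoters in SNA and DCA, and more often in Sham and Lam. With each list held to its 90011 strongest peaks, the length of the DCA list, the shares at CpG-rich promoters were 54.6, 32.0, 50.9 and 6.91%, beside 42.3, 36.3, 35.9 and 38.1% of shared bases. At the other promoters they were then 53.9, 41.7, 46.5 and 33.0%, so the excess at CpG-rich promoters in Sham was 0.705 percentage points in place of 13.1. Outside shared regions, peaks of Sham met 660 of 9703 CpG-rich promoters (6.80%), SNA 110 (1.13%), Lam 441 (4.54%) and DCA 8 (0.0824%), so the same order of lists was seen there. Of the 434, 27 lay in peaks of all 4 lists, 154 in peaks of 3, 182 in peaks of 2 and 71 in peaks of 1. The region around such a promoter therefore mostly counts as shared through peaks that lie beside the promoter, DCA peaks most often. At Hoxa11, Hoxa13, Hoxd13 and Hoxd10, CpG-rich promoters lay in peaks of Sham, SNA and Lam but not of DCA.

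H3K9ac differed there too. Of the 434 promoters 4.61% overlapped an H3K9ac peak after Sham, 4.38% after SNA, 4.15% after Lam and 21.0% after DCA. In regions of 1 list the shares were 33.4, 30.0, 40.6 and 76.9%, and over all CpG-rich promoters 49.6, 46.6, 53.5 and 83.8%, so DCA was highest in and outside shared regions alike. H3K27ac gave 2.07, 2.76, 4.38 and 1.61% at the 434, with no such rise in DCA. In shared regions of at least 20 kb, H3K9ac peaks at CpG-rich promoters were at 0% in Sham, SNA and Lam and 7.19% in DCA. With 1 pooled list per surgery, a difference between surgeries and a difference between libraries cannot be told apart.

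**Figure D5:**
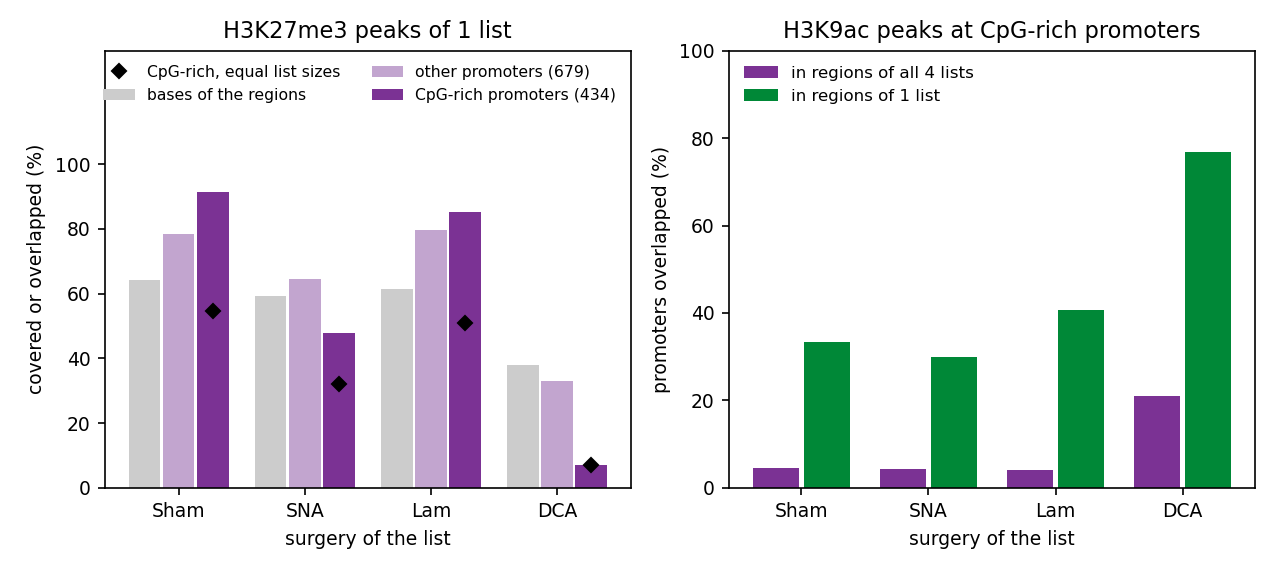
Left, share (vertical axis, %) of the bases, the other promoters and the CpG-rich promoters of shared regions that lay in or overlapped H3K27me3 peaks of each surgery, with diamonds for CpG-rich promoters when all lists have 90011 peaks. Right, share of CpG-rich promoters overlapping an H3K9ac peak of each surgery, in shared regions and in regions of 1 list. The CpG-rich bars are 91.5, 47.9, 85.3 and 6.91% on the left and 4.61, 4.38, 4.15 and 21.0% for shared regions on the right.

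Shared regions were spread unevenly over the chromosomes. Chromosome 7 had the most, 1139 or 8.01 per Mb, and chromosome 3 the fewest per length among autosomes, 2.53 per Mb. Chromosome X had 14 and Y none of its 34 merged regions. X held 0.123 to 0.141% of the peaks of the H3K27me3 lists, and 0.274 to 0.317% of those of the ATAC lists, so few X regions were listed at all. The number of H3K27me3 peaks was 122953 after Sham, 141635 after SNA, 154055 after Lam and 90011 after DCA. The numbers in the peak names ran up to 241936, 248556, 247307 and 180305, so each list held 50.8, 57.0, 62.3 and 49.9% of the peaks that were numbered. Read totals are not in the lists, so the depth behind each is unknown.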

How the data were processed

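The authors deposited 1 peak list per assay and surgery, 16 in all, each from the pooled replicates per the labels. The genome build is mm10 per the submitters' processing notes, and the peak caller is not given in the sources used here. The deposited values are a fold enrichment (a linear ratio) and −log10 p and −log10 q per peak. They were used only to describe and rank peaks within a list. The depth is unknown. Lists were merged at 1 bp with Python 3.11.15, numpy 2.4.6 and pandas 2.3.3, and the merging was tested on simulated peaks. Identical intervals were counted once. Genes (21887 protein-coding) and 21263 promoters, for 17492 genes, came from RefSeq tables of GRCm38.p6. The gene table gives no strand, so both gene ends were used. The symbols Krt85 and Cap23 were not matched.

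Members and gene lists were chosen with earlier results of these data known. Named were the 10 regions with the strongest weakest list, the 10 with the widest core, the 10 genes with the most regions within 10 kb, and up to 4 genes per list. The other sensory neuron, Hox and developmental genes named, and those of short counts, were chosen after their values were seen. The promoter shares per list at equal length and the split at 20 kb were added after seeing the data. Alternatives varied the merging, core, strength, list size, lists left out, width, gene window, assay strength and CpG limit. Some items are not reported here.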

Additional observations from a re-analysis of the deposited data

How the results depend on the processing

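No paired analysis was possible because each list pools its replicates. Differences are shared regions minus regions of 1 list, in percentage points: 11.0 for gene ends, −0.190 for ATAC, −2.14 for H3K9ac and −1.75 for H3K27ac cover, 27.3 for flanking H3K27me3 and 15.3 for CpG-rich promoters. Merging peaks up to 1 kb apart gave 12.5 for gene ends, −0.735 for ATAC and 9.85 for CpG. A core of at least 200 bp left 5753 regions, with 15.9, 0.201 (reversed) and 19.9. A −log10 p of at least 2 left 0 regions, so nothing else could be computed. Equal list sizes gave 4384 regions and 12.3 for gene ends. At widths of 2 to 4 kb gene ends (−1.51) and CpG (−16.6) reversed, with −4.43 for ATAC and 13.3 for flanks. Gene starts alone gave 6.98, a CpG limit of 0.75 gave 9.16, and assay peaks with −log10 p of at least 5 gave −0.0452 for ATAC. Shares of regions instead of bases reversed ATAC (40.1), H3K9ac (0.929) and H3K27ac (0.710). Among alternatives added after seeing the data, shares at 2 to 4 kb gave −2.12, −6.54 and −5.07, regions under 20 kb gave 9.14 for gene ends, −0.995 for ATAC and 7.75 for CpG, and regions with no promoter −0.929 for ATAC.

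Leaving out 1 list in turn gave 15231 to 22541 regions, a width ratio of 5.15 to 5.51 (7.77 with all 4), 6.89 to 9.54 for gene ends, −1.55 to 1.78 for ATAC, −2.09 to −1.38 for H3K9ac, −1.68 to −1.16 for H3K27ac, 19.1 to 22.4 for flanks and 10.2 to 19.2 for CpG. The largest number of regions and the reversal of ATAC both came without the DCA list, and the lowest H3K9ac and H3K27ac sizes without the Lam list. H3K9ac and H3K27ac cover stayed lower in shared regions under every alternative counted in bases. The unknown depth of the lists limits all of these values.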
